A study of Mus musculus with 23 samples.

Results

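The B2 elements are a family of short interspersed elements (SINEs) of the mouse genome, and 5 subfamilies of it were measured here: B2_Mm1a, B2_Mm1t, B2_Mm2, B3 and B3A. They are the rows of the deposited repeat table whose family is B2 and whose class is SINE, 5 of 1135 rows and 5 of 35 SINE rows, and all 5 were abundant enough to be tested. The samples were whole spinal cord lysates of PS19 mice, which are heterozygous for a human tau transgene, and of their wild-type littermates, at 4 and 9 months of age. The 23 samples formed 4 groups: 7 PS19 and 6 control mice at 9 months, and 5 PS19 and 5 control mice at 4 months. In PS19 mice the transgene, a disease-linked mutant tau, is driven by the mouse prion protein promoter, so it is expressed widely in neurons and models tau deposition rather than the onset of a human disease. The labels give no sex, batch or pairing, and replicate numbers here only name the samples.

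B2 elements derive from a tRNA, are transcribed by RNA polymerase III from an internal promoter, and move only with the help of the LINE-1 machinery. B2 RNA rises after heat shock, where it binds RNA polymerase II and represses transcription. B2_Mm1a, B2_Mm1t and B2_Mm2 are the younger subfamilies, and B3 and B3A are older relatives. Copies are also common in introns and near the ends of genes, so that in poly(A)-selected RNA a read in a B2 element may belong to the transcript of a host gene. The table gives 1 value per subfamily, with no strand, copy or position, so these origins cannot be told apart. Reads can also be divided between near-identical subfamilies, and the 5 members are not independent of each other.

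Each sample had between 338090 and 2168280 reads assigned to repeats. Reads per sample ranged from 1187 to 10620 for B2_Mm1a, from 1397 to 13233 for B2_Mm1t and from 5928 to 53509 for B2_Mm2. They ranged from 10801 to 104630 for B3 and from 4445 to 55580 for B3A. Counting error was thus small beside the spread of normalized reads between mice. The shares given below spread less, and counting error was not compared with their spread. Values below are normalized reads, which are reads divided by the size factor of the sample. They are not divided by length or copy number, so a higher value of one subfamily than of another is no higher expression. The total over all repeats was 370990 to 539759 normalized reads at 9 months. At 4 months it was 1494940 to 2459740 in replicates 1 to 3 of both genotypes and 471178 to 779835 in replicates 4 and 5, and the labels do not say what separates these sets. The table covers repeats, so the transgene, the tissue and cell type markers were not analysed here. In bulk tissue, fewer cells of a type and less RNA per cell cannot be told apart.

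**Figure D1:**
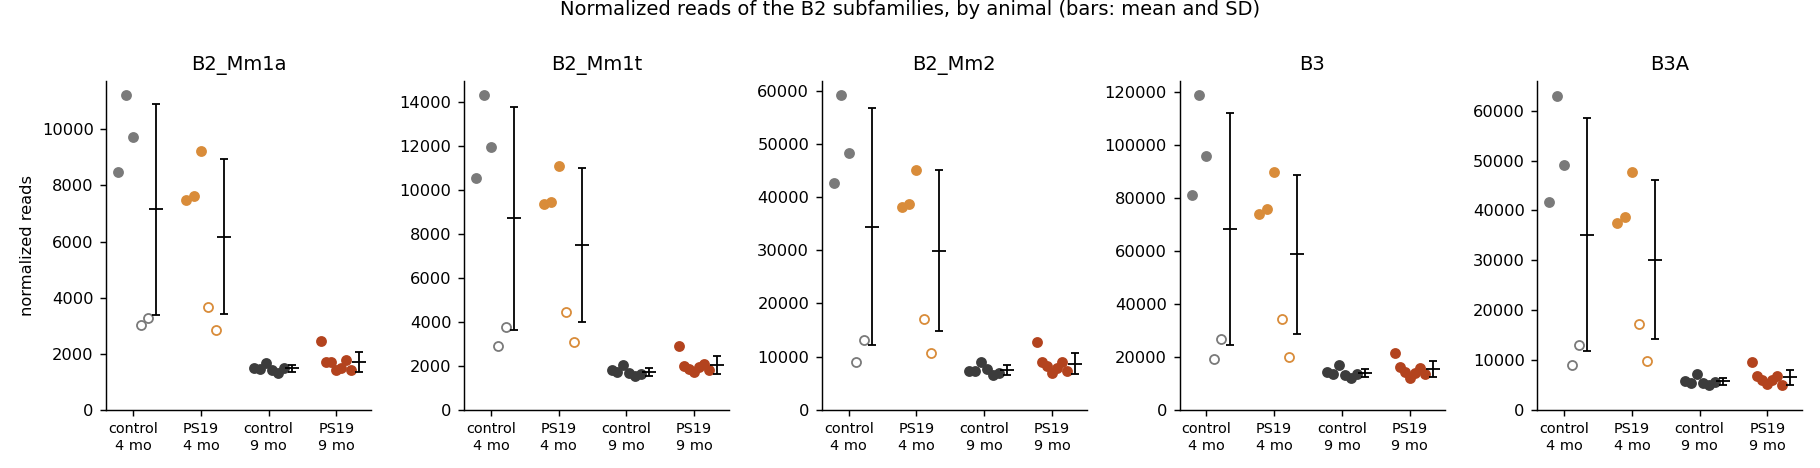
Normalized reads of each B2 subfamily (vertical axes, from 0) in each mouse of the 4 groups. Open circles are replicates 4 and 5 at 4 months, filled circles are all other samples, and black bars are the group mean with its SD. All 5 subfamilies were highest in replicates 1 to 3 at 4 months, and at 9 months PS19 replicate 1 was the highest mouse in each.

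Whether B2 signal differed with the tau transgene was asked first at 9 months. None of the 5 subfamilies passed the test, although each had a higher mean in PS19. The younger B2_Mm1a was at 1708 ± 355 normalized reads (SD) in the 7 PS19 mice, and the 6 controls were at 1472 ± 118. In PS19 its lowest, median and highest values were 1428, 1689 and 2448, and in control they were 1303, 1479 and 1659. The groups overlapped, with 4 of 7 PS19 mice above every control. B2_Mm1t, the other low-count younger subfamily, was at 2040 ± 400.2 against 1736 ± 179. Its PS19 values had a lowest of 1718, a median of 1940 and a highest of 2901, and its control values 1533, 1697 and 2044. All 7 PS19 mice were above the control median, and 2 were above every control.

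B2_Mm2, the younger subfamily with the most reads, was at 8683 ± 1925 normalized reads in PS19, against 7464 ± 870.0 in control. The lowest PS19 value was 6859, the median 8146 and the highest 12677, while control values had a lowest of 6505, a median of 7273 and a highest of 9048. The older B3, the third highest of all 1135 subfamilies by its 9-month mean, was at 15261 ± 3039 against 13890 ± 1668. For B3 the lowest, median and highest values were 12010, 14351 and 21409 with the transgene and 11852, 13552 and 16905 without it. B3A, the other older subfamily, was at 6484 ± 1533 against 5677 ± 768, with a lowest, median and highest of 5035, 6044 and 9547 in PS19 and of 4878, 5515 and 7125 in control. For B2_Mm2, B3 and B3A the groups overlapped, and 1 PS19 mouse, replicate 1, lay above every control.

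In limma on log2(normalized reads + 1) of the 13 samples of this age, 0 of 5 B2 subfamilies passed an adjusted p of 0.05, where 31 of all 920 tested subfamilies (3.37%) did. None of the 5 had an unadjusted p under 0.05, a level that 164 of the 920 reached. The log2 fold change was 0.22 for B2_Mm1t (SE 0.11, 95% interval -0.00425 to 0.44, limma adjusted p 0.290). It was 0.20 for B2_Mm1a and for B2_Mm2 (SE 0.11 each, limma adjusted p 0.346 and 0.339), 0.17 for B3A (SE 0.12, adjusted p 0.423) and 0.12 for B3 (SE 0.11, adjusted p 0.526). The median over the 5 was 0.20 and the median over all 920 was 0.19, so the B2 values lay near the middle of all repeats. The upper bounds of the 5 intervals were 0.34 to 0.44, and rises up to these sizes are within the error. edgeR called 24 subfamilies and DESeq2 called 45 on the recovered reads, and 0 of the 5 B2 subfamilies were among them, with an unadjusted edgeR p of 0.0450 for B2_Mm1t alone. With sample weights in limma the unadjusted p was 0.0210 for B2_Mm1t and 0.0268 for B2_Mm2, their adjusted p 0.113 and 0.130, and 98 of the 920 passed. Without PS19 replicate 1 the log2 differences of B2_Mm1a, B2_Mm1t, B2_Mm2, B3 and B3A were 0.11, 0.13, 0.10, 0.04 and 0.07. Scaled within repeats by the trimmed mean of M-values (TMM), the fold changes were 0.03, 0.05, 0.04, -0.04 and 0.01 in that order, around a median of all repeats of 0.03.

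PS19 replicates 1 to 5 carry lower sample numbers in their titles than every control of this age. PS19 replicates 6 and 7 alone, set against the 6 controls, gave log2 fold changes of 0.06 to 0.16 for the 5 subfamilies with 0 of 5 past the threshold in limma, where 6 of all subfamilies passed. The other 30 SINE subfamilies also had 0 calls at 9 months and a median log2 fold change of 0.11. Among them FAM, a monomer of the B1 (Alu) family, was highest at 0.36 and MIR3 was lowest at -0.01.

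**Figure D2:**
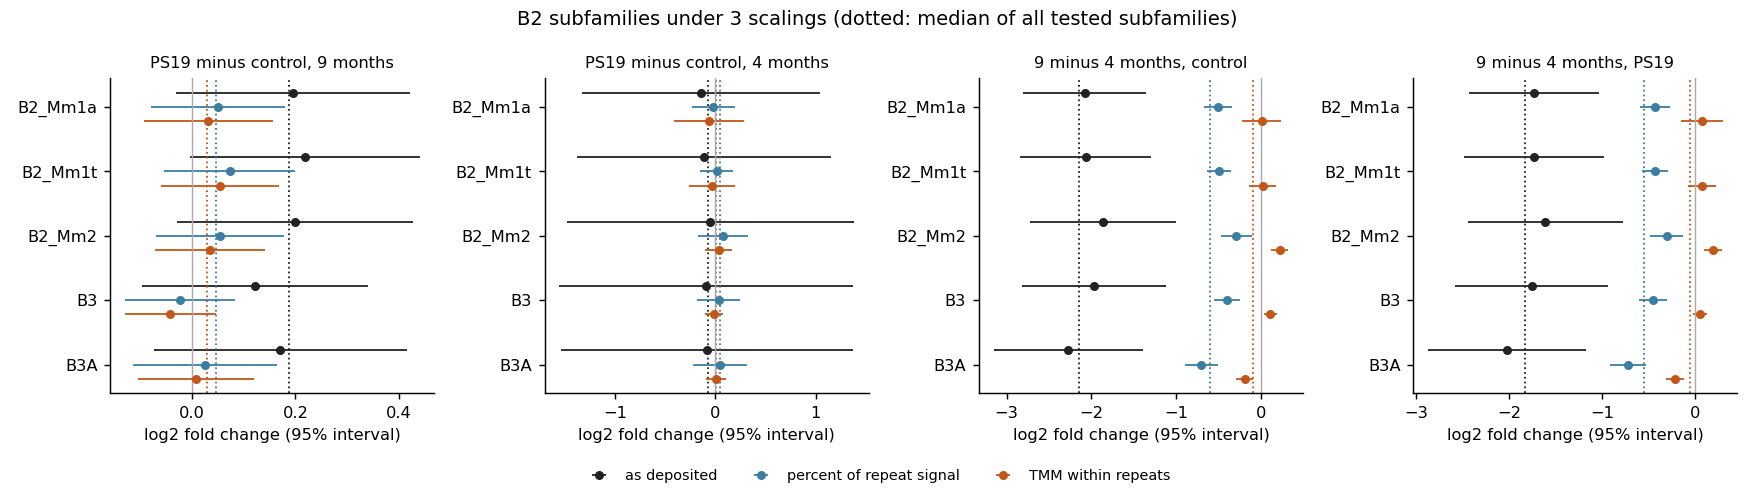
Log2 fold changes of each B2 subfamily (horizontal axes, points with 95% intervals from limma) for PS19 against control at each age and for 9 against 4 months in each genotype. Colours mark the deposited scaling, percent of the repeat signal and TMM within repeats, and dotted lines are the median of all tested subfamilies under the same scaling. Genotype intervals include 0 under all 3 scalings, and the age differences of control mice run from -2.27 as deposited to 0.22 under TMM.

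At 4 months the same comparison was limited by the spread between the 2 sets of samples. B3 was at 73688, 75929, 89719, 34220 and 19831 normalized reads in PS19 replicates 1 to 5. In control replicates 1 to 5 it was at 80950, 118694, 95788, 19072 and 26640. B2_Mm2 was at 38216, 38756, 45170, 17040 and 10587 in PS19 and at 42691, 59220, 48342, 8907 and 13182 in control. For both, replicates 4 and 5 were the low samples of each genotype, and the genotypes overlapped.

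B3A was at 37396, 38708, 47747, 17169 and 9693 normalized reads in PS19 and at 41592, 63051, 49131, 9017 and 13012 in control. B2_Mm1a was at 7484, 7620, 9242, 3678 and 2846 in PS19 and at 8473, 11227, 9714, 3018 and 3276 in control. B2_Mm1t was at 9348, 9455, 11077, 4430 and 3101 in PS19 and at 10558, 14313, 11973, 2917 and 3775 in control. In each of the 3, control replicate 2 was the highest sample, and the lowest was PS19 replicate 5 for B2_Mm1a and control replicate 4 for the other two.

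In limma on the 10 samples of this age, 0 of 5 B2 subfamilies and 0 of all 920 (0%) passed, and 0 of the 920 had an unadjusted p under 0.05 in limma, edgeR or DESeq2. The log2 fold changes were -0.15 for B2_Mm1a, -0.11 for B2_Mm1t, -0.05 for B2_Mm2, -0.09 for B3 and -0.08 for B3A, with SE of 0.56 to 0.69. On the recovered reads edgeR and DESeq2 gave -0.20 to -0.22 for the 5 subfamilies, and limma with sample weights gave -0.21 to -0.23. For B3 the 95% interval was -1.55 to 1.37, so that a difference of this size in either direction was not detectable. Within replicates 1 to 3 the log2 differences were -0.27, -0.30, -0.29, -0.29 and -0.30 for B2_Mm1a, B2_Mm1t, B2_Mm2, B3 and B3A, where all repeats together gave -0.26. Within replicates 4 and 5 they were 0.04, 0.16, 0.31, 0.21 and 0.25, where all repeats gave 0.08. The genotype difference thus had opposite signs in the 2 sets. The values with sample weights, -0.21 to -0.23, lay nearer to those of replicates 1 to 3 than to those of replicates 4 and 5. A limma fit with a term for the sets again called 0 of 5, with an interval of -0.59 to 0.41 for B3. The sets were told apart by the repeat totals of these same samples, which include B2. A narrower interval follows in part from that choice.

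A limma interaction term over all 23 samples asked whether age altered the genotype difference. 0 of 5 B2 subfamilies and 0 of all 920 (0%) passed, with 8 of the 920 and 0 of the 5 at an unadjusted p under 0.05. edgeR called 0 and DESeq2 called 1 subfamily, which was not a B2 element. The estimates, 9 minus 4 months, were 0.34 for B2_Mm1a, 0.33 for B2_Mm1t, 0.25 for B2_Mm2, 0.21 for B3 and 0.25 for B3A, with SE of 0.49 to 0.60. With sample weights they were 0.40, 0.44, 0.41, 0.31 and 0.38 in that order, all but B3 at an unadjusted p under 0.05 (0.0130 to 0.0446), with limma adjusted p of 0.106 to 0.233 for the 5 and 52 calls among the 920. The weights of replicates 4 and 5 at 4 months were 0.0385 to 0.156, and those of the other 4-month samples 0.502 to 7.05. At 4 months the weighted estimates thus rest mainly on those other samples. Replicates 4 and 5, where the genotype difference had the opposite sign, counted little. edgeR and DESeq2 gave estimates of 0.35 to 0.45. The estimates without weights stood beside a median of 0.27 over all repeats and turned negative for B2_Mm2, B3 and B3A under TMM scaling. Their SE lay below the 0.56 to 0.69 of the 4-month genotype difference, which the interaction contains, so these SE are too small.

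Between the ages, every B2 subfamily had lower normalized reads at 9 months in both genotypes, as most repeats did. In control mice 5 of 5 passed in limma as lower, where 730 of all 920 (79.3%) did, so this count is close to that of all repeats. The log2 fold change was -2.27 for B3A (SE 0.43, limma adjusted p 3.24e-05), -2.08 for B2_Mm1a (SE 0.35, adjusted p 1.03e-05) and -2.07 for B2_Mm1t (SE 0.38, adjusted p 2.26e-05). It was -1.97 for B3 (SE 0.42, limma adjusted p 0.000107) and -1.86 for B2_Mm2 (SE 0.42, adjusted p 0.000216). The median was -2.07 over the 5 and -2.14 over all 920. In PS19 mice 5 of 5 were again lower, where 708 of 920 (77.0%) were. The log2 fold changes were -1.74, -1.73, -1.61, -1.76 and -2.02 for B2_Mm1a, B2_Mm1t, B2_Mm2, B3 and B3A (limma adjusted p 7.57e-05, 0.000141, 0.000767, 0.000312 and 0.000113). The median was -1.74 over the 5 and -1.83 over all.

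The size of this fall followed the set of 4-month samples. The mean of replicates 1 to 3 was 2.80 times that of replicates 4 and 5 for B2_Mm1a, 3.13 times for B2_Mm1t, 3.65 times for B2_Mm2, 3.57 times for B3 and 3.79 times for B3A, and 3.02 times for all repeats. With replicates 4 and 5 as the only 4-month samples, all 5 were still lower at 9 months in limma in each genotype, where 462 of 920 (50.2%) were lower in control and also in PS19. Another 150 were higher in control and 129 in PS19. The median over the 5 was then -0.94 in control and -0.88 in PS19, beside -0.96 and -0.95 over all repeats. In normalized reads, every 9-month mouse lay below every 4-month mouse for 2 of 5 subfamilies, B2_Mm1a (highest 2448 against lowest 2846) and B2_Mm1t (2901 against 2917), where 27.1% of all 920 were so separated. Without PS19 replicate 1 at 9 months this held for 4 of 5, all but B2_Mm2, and for 34.7% of all 920. Age coincides with whatever else differed between the collections, and these cannot be told apart.

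TMM scaling within repeats, which sets the bulk of repeats to a common level, moved the median of all subfamilies from -2.14 to -0.10 for controls and, for PS19 mice, from -1.83 to -0.06. On that scale the members went in both directions, as all repeats did. In control, 3 of 5 passed in limma, where 577 of 920 (62.7%) passed in either direction, 301 higher and 276 lower. B2_Mm2 was higher at 9 months (log2 fold change 0.22, limma adjusted p 0.000362), B3 was higher (0.11, adjusted p 0.0126) and B3A was lower (-0.19, adjusted p 0.00147), while B2_Mm1a and B2_Mm1t were at 0.01 and 0.02. In PS19, 2 of 5 passed, where 556 of 920 (60.4%) did, 297 higher and 259 lower. B2_Mm2 was again higher (0.19, limma adjusted p 0.00125) and B3A again lower (-0.22, adjusted p 0.000234), with B2_Mm1a, B2_Mm1t and B3 at 0.07, 0.07 and 0.05. The direction for B2_Mm2 thus depended on the scaling, and that for B3A was negative under each scaling run. With replicates 4 and 5 as the only 4-month samples, the calls on this scale differed in control. Of all 920, 442 (48.0%) passed in that fit, 257 higher and 185 lower. B2_Mm1a passed as lower (-0.32, limma adjusted p 0.0184) and B2_Mm2 as higher (0.24, adjusted p 0.00660). B3 (0.08, limma adjusted p 0.259) and B3A (-0.16, adjusted p 0.0730) did not pass. In PS19 B2_Mm2 (0.18, limma adjusted p 0.0370) and B3A (-0.19, adjusted p 0.0348) passed there as before. There 399 of all 920 (43.4%) passed, 256 higher and 143 lower, so the B2 count is close to that of all repeats. Under quantile scaling B3 did not pass in control (-0.05, adjusted p 0.766) or in PS19 (-0.29, adjusted p 0.0565).

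**Figure D3:**
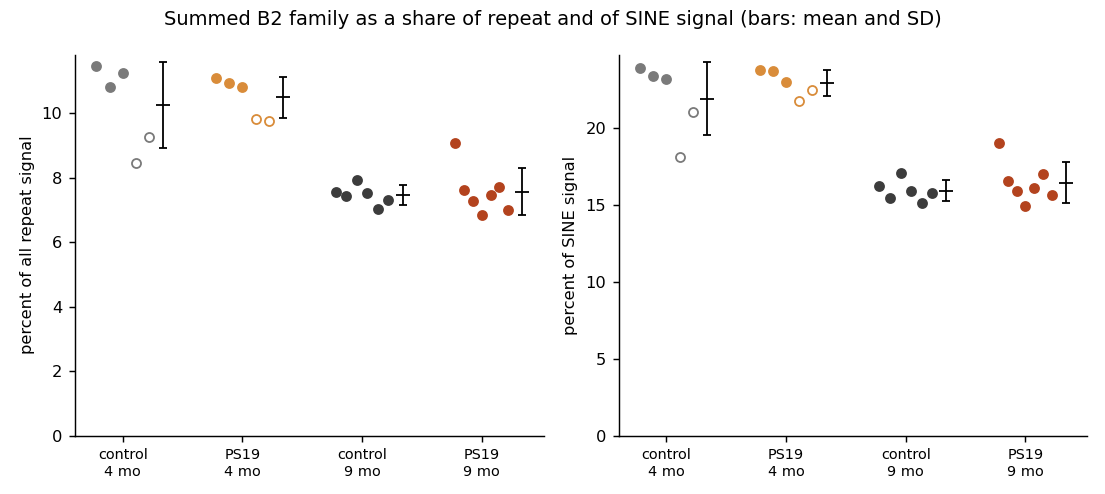
Summed signal of the 5 B2 subfamilies as percent of all repeat signal (left axis) and of SINE signal (right axis) in each mouse, both from 0. Open circles are replicates 4 and 5 at 4 months, filled circles all other samples, and bars the mean with SD. The B2 share of repeat signal was 8.46 to 11.5% at 4 months and 6.86 to 9.07% at 9 months.

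Shares of the repeat signal do not depend on the size factors. Together the 5 subfamilies made up 7.57 ± 0.73% (SD) of the repeat signal of the 7 PS19 mice of 9 months, and 7.47 ± 0.30% in the 6 controls. In PS19 the 7 mice were at 9.07, 7.62, 7.28, 6.86, 7.47, 7.71 and 6.997%, and in control the 6 were at 7.55, 7.45, 7.95, 7.52, 7.03 and 7.32%. The genotypes overlapped, and PS19 replicate 1 stood above the rest. At 4 months the share averaged 10.5 ± 0.65% (SD) over 5 PS19 mice, against 10.3 ± 1.33% over 5 controls. PS19 replicates 1 to 5 were at 11.1, 10.9, 10.8, 9.81 and 9.77%, and control replicates at 11.5, 10.8, 11.3, 8.46 and 9.27%. The share was thus lower in replicates 4 and 5, and control replicate 4 lay below PS19 replicate 1 of 9 months.

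On percent of repeat signal, all 5 subfamilies passed as lower at 9 months in limma in both genotypes, where 475 of 920 (51.6%) did in control and 50.7% did in PS19. B3A had log2 fold changes of -0.70 in control and -0.72 in PS19, and B2_Mm2 had -0.29 and -0.31, beside medians of all subfamilies of -0.60 and -0.55. B2_Mm1a, B2_Mm1t and B3 lay between, at -0.50, -0.49 and -0.40 in control and -0.43, -0.43 and -0.46 in PS19. With replicates 4 and 5 as the only 4-month samples, B2_Mm2 no longer passed in control (log2 fold change -0.04, limma adjusted p 0.716). Every 9-month mouse lay below every 4-month mouse for 3 of 5 subfamilies, B2_Mm1a, B2_Mm1t and B3A, where 16.6% of all 920 were so separated. The margins were narrow, at 0.454 against 0.456% for B2_Mm1a and 1.77 against 1.78% for B3A. Without PS19 replicate 1 at 9 months, B3 was separated too, as were 18.7% of all 920.

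**Figure D4:**
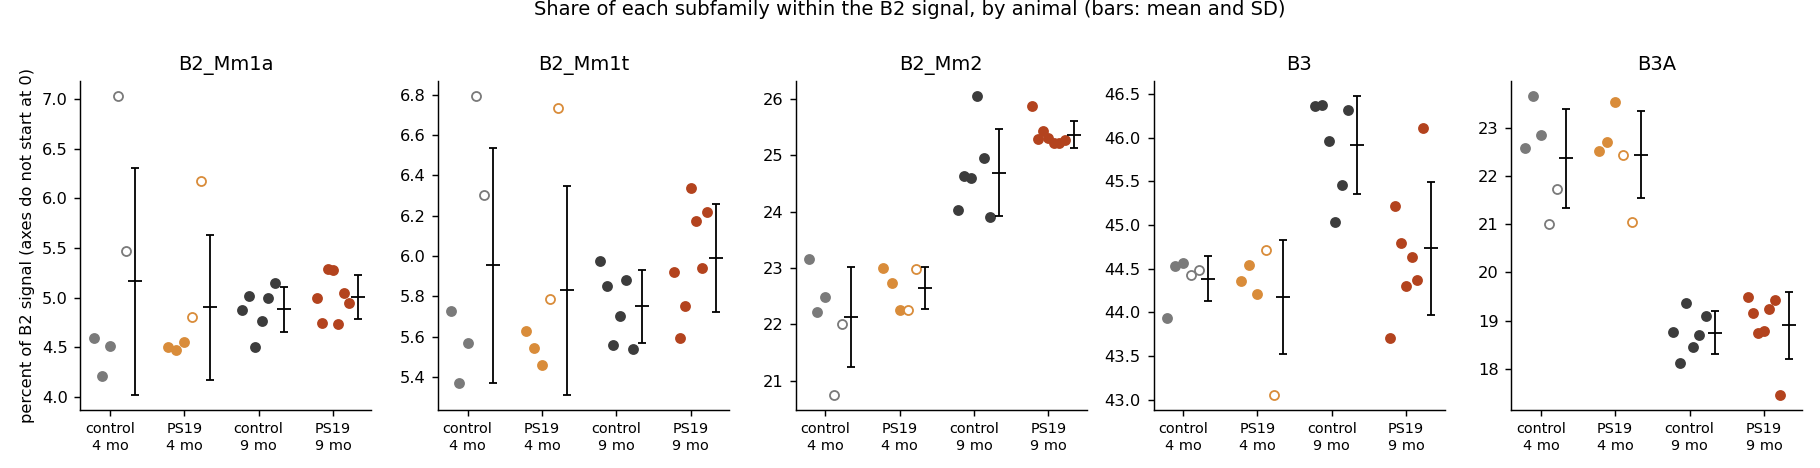
Percent of the B2 signal taken by each subfamily in each mouse of the 4 groups. The vertical axes differ and do not start at 0, open circles are replicates 4 and 5 at 4 months, and bars are the mean with SD. B2_Mm2 was at 20.7 to 23.2% at 4 months and 23.9 to 26.1% at 9 months, and B3A was at 21.0 to 23.7% and 17.5 to 19.5%.

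The make-up of the B2 signal differed between the ages. B2_Mm2 was 25.1 ± 0.63% (SD) of it over the 13 mice of 9 months and 22.4 ± 0.70% over the 10 of 4 months, with no overlap between the ages. B3A was 18.8 ± 0.58% at 9 months and 22.4 ± 0.91% at 4 months, again with no overlap. For every 100 normalized reads of B2_Mm2 there were 75.2 ± 3.03 of B3A at 9 months (69.1 to 79.9) and 100.1 ± 4.26 at 4 months (91.6 to 106). Both 4-month sets lay on the same side of all 9-month mice in this ratio. Per 100 reads of B3, B3A was also apart, at 37.9 to 44.6 at 9 months and 47.3 to 53.2 at 4 months. B2_Mm2 per 100 reads of B3 overlapped, at 51.6 to 59.2 and 46.7 to 53.4. B3 overlapped between the ages, at 45.3 ± 0.90% and 44.3 ± 0.48%. B2_Mm1a (4.95 ± 0.22% and 5.03 ± 0.91%) and B2_Mm1t (5.88 ± 0.25% and 5.89 ± 0.52%) overlapped as well. Within 4 months B2_Mm1a moved with the sets, at 9.46 to 10.5 reads per 100 reads of B3 in replicates 1 to 3 and 10.7 to 15.8 in replicates 4 and 5. Between genotypes at 9 months, B2_Mm2 was 25.4 ± 0.24% in PS19 and 24.7 ± 0.78% in control, and B3 was 44.7 ± 0.76% and 45.9 ± 0.56%, with overlap in both. As shares of 1 sum, these values are bound to each other, and they are given as a description with no test. How often shares within other repeat families separate the ages was not counted.

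**Figure D5:**
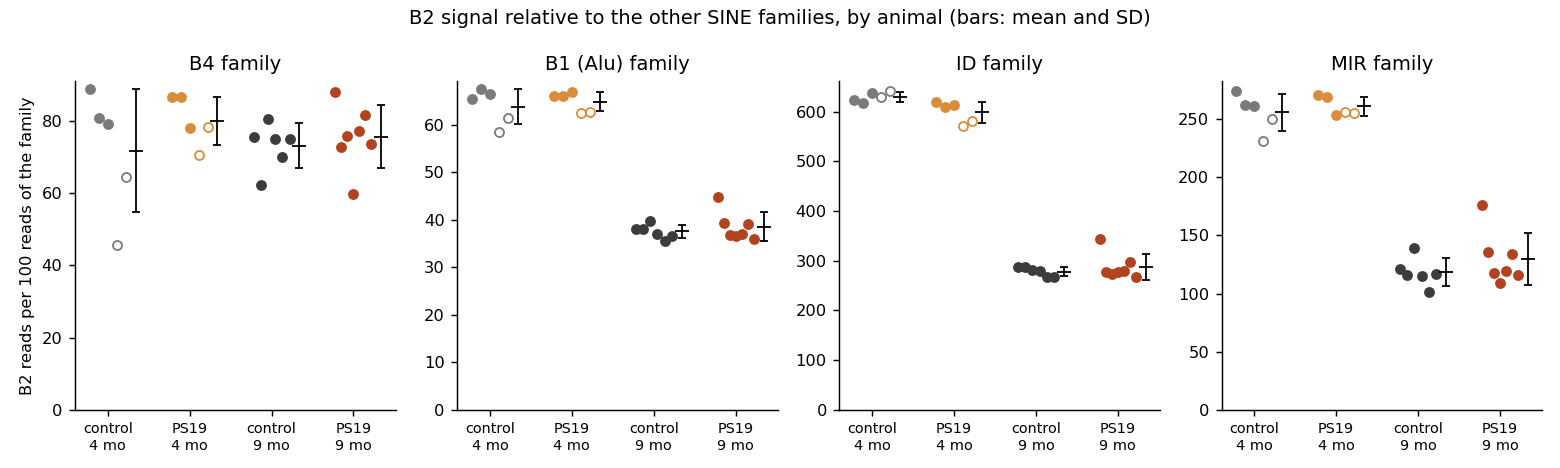
Summed B2 normalized reads per 100 normalized reads of the B4, B1 (Alu), ID and MIR families (vertical axes, from 0) in each mouse. Open circles are replicates 4 and 5 at 4 months, and bars are the mean with SD. The ages overlap for B4 and are apart for the other 3 families.

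The other SINE families gave a second scale for B2. B1 elements, listed as the Alu family, derive from 7SL RNA, ID elements from a tRNA, MIR elements are an ancient family shared by mammals, and B4 elements join tRNA-derived and B1-like sequence. Against B4, B2 overlapped between the ages, at 74.5 ± 7.50 reads per 100 (SD over 13 mice) at the older age and 75.9 ± 13.02 (SD over 10) at the younger. Against B1 it was 38.0 ± 2.38 at 9 months and 64.3 ± 2.92 at 4 months, with a highest 9-month value of 44.7 and a lowest 4-month value of 58.5. Against ID it was 283 ± 20.3 and 615 ± 22.5, and against MIR 124 ± 18.8 and 258 ± 12.4, both without overlap. PS19 replicate 1 was the highest 9-month mouse in all 4 ratios. How many ratios between other repeat families separate the ages was not counted.

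In the deposited scaling, 4 of 4 B4 subfamilies were lower at 9 months in control in limma, with a median log2 fold change of -2.39 near the -2.07 of B2. Of the B1 family 14 of 16 were lower with a median of -1.17, and of ID and MIR 2 of 4 each, with medians of -0.89 and -0.90. In PS19 the counts were 4 of 4, 13 of 16, 2 of 4 and 2 of 4. Over all 30 other SINE subfamilies the median was -1.16 in control and -0.96 in PS19. B4A was the lowest of the 30 at -2.62 in control and -2.29 in PS19, and FAM the highest at 0.08 and 1.001. Under TMM scaling these directions turned for most: 26 of the 30 passed as higher in control and 3 as lower, and 27 and 2 did in PS19.

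The spread of B2 between mice at 9 months rested largely on PS19 replicate 1. The coefficient of variation over all 13 mice was 18.1% for B2_Mm1a, 18.1% for B2_Mm1t, 19.7% for B2_Mm2, 17.1% for B3 and 20.7% for B3A, beside a median of 13.7% over the 86 subfamilies with a 9-month mean of at least 1000. Summed by family it was 18.4% for B2, 11.96% for ID, 11.7% for B4, 11.6% for B1 and 3.59% for MIR. Over the 12 mice without PS19 replicate 1 it was 9.36%, 9.59%, 11.2%, 10.8% and 13.1% for B2_Mm1a, B2_Mm1t, B2_Mm2, B3 and B3A, beside a median of 10.6% over the same 86 subfamilies. By family it was then 10.9% for B2, 9.88% for ID, 8.64% for B4, 7.85% for B1 and 2.97% for MIR. No test was made of these differences.

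Likeness to the summed B2 signal was measured as Pearson's r of the log2 percent of repeat signal over the 13 mice of 9 months, among 637 subfamilies outside the family with a mean of at least 50. The 5 most alike were MTD (0.952), L1ME3G (0.945), B4A (0.944), B4 (0.934) and MTC (0.888), while the median was 0.258 over all candidates and 0.294 over the other SINE subfamilies. MTD and MTC are LTR elements of the MaLR group and L1ME3G is an old LINE-1. Over all 23 samples, where the ages stand apart, the 5 most alike were RMER6A, B4, L1MEf, B4A and MTD. Among the members at 9 months, B2_Mm2 and B3A were nearest to each other (r 0.896), B3 was nearest to B3A (0.893), and B2_Mm1a and B2_Mm1t were nearest to B2_Mm2 (0.767 and 0.832). These values share libraries, a common denominator and possibly reads, and are a description only. At 9 months they include PS19 replicate 1, with a B2 share of 9.07% where the other mice were at 6.86 to 7.95%. The values may rest largely on this mouse, and r without it was not computed.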

How the data were processed

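Poly(A)-selected, stranded paired-end RNA libraries of mouse spinal cord were analysed from 1 table of repeat subfamilies. Its values are a signal deposited by the authors, read numbers per subfamily scaled by 1 size factor per sample. Per the submitters' processing notes, Trimmomatic, STAR, DESeq2 and build mm10 were used. Not given in the sources used here are the tool that counted repeat reads, its annotation, and how multi-mapping reads were handled. All 23 columns matched a sample title and 0 were unused. Values were whole multiples of 1 read within 0.01 read for 100% of them, which gave the reads per sample. In 2 columns the size factor is close to 1, so their check is weaker. Replicate pairs differed by more than sampling noise (lowest chi-square per degree of freedom 3.80), and p-values measure only the spread between these samples.

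Values were fitted as log2(value + 1) in R 4.3.3 by limma 3.58.1 with empirical Bayes moderation and a variance trend, for subfamilies with a mean of at least 10 (920 tested, 215 not), with Benjamini-Hochberg adjustment over all tested and a threshold of 0.05. Fold changes are on this log2 scale. Genotype was compared on the samples of each age alone, and age and the interaction on all 23. The fits on all 23 take 1 error per subfamily over groups of unlike spread. For B3 the SE was 0.58 for the interaction and 0.69 for the 4-month genotype difference alone. The interaction contains the 4-month difference, so its SE and p-values are too small. Those for age may be too small as well. Alternatives were other pseudocounts, filters, scalings, variance settings, sample weights, edgeR 4.0.16 and DESeq2 1.42.0 on recovered reads, and leaving out each sample. Some fits were also run on simulated data, and no outcome of that run is given here. The simulation is not shown to hold the unlike spread of the 4-month samples. It therefore cannot be used to judge the age, 4-month or interaction fits. All 5 B2 subfamilies are named in each comparison, other SINEs by family with the highest and lowest, and the 5 subfamilies most alike. The members and lists were chosen with earlier results of these data known.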

Additional observations from a re-analysis of the deposited data

Results flagged for a closer look

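A sample of its group that stood apart from the others by Dixon's criterion was found in 15 of 72 combinations of measure and group examined, where chance gives about 5 percent. The combinations share samples and reads and are not independent. The cause was not tested for any of them, and the criterion takes no account of the counting error of a share.

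Most came from PS19 replicate 1 at 9 months, the highest of its 7 mice. It was at 2448 normalized reads for B2_Mm1a (others 1428 to 1779), 2901 for B2_Mm1t (1718 to 2095), 12677 for B2_Mm2 (6859 to 8995), 9547 for B3A (5035 to 6856) and 48981 for the 5 subfamilies together (27110 to 35570). As percent of repeat signal it was at 0.454 for B2_Mm1a (others up to 0.389), 0.537 for B2_Mm1t (up to 0.461), 2.35 for B2_Mm2 (up to 1.94) and 9.07 for the sum (up to 7.71). B2_Mm2 was 25.9% of its B2 signal, where the other 6 were at 25.2 to 25.4%. These shares rest on 53558 B2 reads in this mouse and 26302 to 40816 in the others. Whether so small a gap exceeds counting error was not tested. Its repeat total, 539759 normalized reads, was the highest of the 13 mice of that age.

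PS19 replicate 5 at 4 months had the highest shares of the 2 low-count subfamilies among its 5 mice. B2_Mm1a was 0.604% of its repeat signal (others 0.472 to 0.501%) and 6.18% of its B2 signal (4.47 to 4.81%), and B2_Mm1t was 6.73% of its B2 signal (5.46 to 5.79%). Control replicate 1 at 4 months had the lowest share of B3 within B2, at 43.9% (others 44.4 to 44.6%). PS19 replicate 7 at 9 months had the lowest share of B3A within B2, at 17.5% (others 18.7 to 19.5%).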

How the results depend on the processing

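Counts of B2 subfamilies past the threshold stayed at 0 of 5 for genotype at either age and for the interaction under every setting run, and at 5 of 5 for each age comparison whenever 1 sample was left out. TMM scaling within repeats gave age counts of 3 in control and 2 in PS19. Together with replicates 4 and 5 as the only 4-month samples, a setting chosen after seeing the data, it gave 2 in each. In control these were B2_Mm1a (lower) and B2_Mm2 (higher). Quantile scaling gave 4 in each genotype. Percent of repeat signal with replicates 4 and 5 as the only 4-month samples, also chosen after seeing the data, gave 4 in control and 5 in PS19. As percent of SINE signal the B2 share was 21.9 in control and 22.97 in PS19 at 4 months, and 15.9 and 16.5 at 9 months.

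Signs turned as follows, in log2 fold change. For PS19 against control at 9 months, B3 was -0.042 (TMM), -0.12 (quantile scaling) and -0.023 (percent of repeat signal). At 4 months, B2_Mm1t was 0.012 on percent. B2_Mm2 was 0.031 with TMM and with TMM plus the set term, 0.0099 with quantile scaling and 0.075 on percent. B3 was 0.13 (quantile) and 0.034 (percent), and B3A was 0.0021 with TMM, alone and with the set term, and 0.046 on percent. For the interaction, B2_Mm2 was -0.032 with TMM, alone and with the set term, -0.015 with quantile scaling and -0.021 on percent. B3 was -0.068 with TMM, alone and with the set term, -0.24 with quantile scaling and -0.057 on percent. B3A was -0.032 with TMM, alone and with the set term, and -0.0202 on percent. For age in control under TMM, B2_Mm1a was 0.0081, B2_Mm1t 0.019, B2_Mm2 0.22 and B3 0.11, and with replicates 4 and 5 alone B2_Mm2 was 0.24 and B3 0.077. In PS19 they were 0.068, 0.069, 0.19 and 0.045, then 0.18 and 0.042. The set term with TMM was also chosen after seeing the data. These scalings set the repeats of each sample to a common level by construction.

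Leaving out 1 sample moved the 4-month fold change from -0.40 to 0.10 for B2_Mm1a, -0.44 to 0.16 for B2_Mm1t, -0.45 to 0.28 for B2_Mm2, -0.47 to 0.25 for B3 and -0.48 to 0.27 for B3A. The interaction moved from 0.097 to 0.60 for B2_Mm1a, 0.054 to 0.66 for B2_Mm1t, -0.076 to 0.65 for B2_Mm2, -0.13 to 0.59 for B3 and -0.10 to 0.65 for B3A. No paired analysis was possible because the labels give no replicate numbers. Depth did not limit these fold changes of normalized reads, since each value rests on at least 1187 reads. The spread of the 4-month samples and the unknown scaling between ages did. For shares, counting error was not compared with the spread between mice.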

Other observations

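At 9 months the summed B2 signal per 100 reads of all other repeats was compared with the total of those other repeats. Pearson's r was 0.960 over the 7 PS19 mice (0.777 without replicates 1 and 4, the 2 farthest from the median) and 0.912 over the 6 controls (0.00207 without replicates 3 and 5, so that it rests on them). In control r of the percent of repeat signal was 0.982 for B3A, 0.903 for B3 and 0.583 for B2_Mm2. For B2_Mm1t and B2_Mm1a it was 0.480 and -0.00601. Without replicates 3 and 5 these values were 0.825, 0.510, -0.640, 0.18 and 0.297 in that order, so that most of them rest on these mice. In PS19 r of the percent of repeat signal was 0.752 to 0.968 for the members, and for B2_Mm1t it was -0.220 without replicates 1 and 4. The percent taken by the MIR family had r of -0.938 in PS19 and -0.955 in control. MIR reads varied little at 9 months (coefficient of variation 3.59%), so their percent falls as the total rises by construction. For the other families r in PS19 and control was 0.636 and 0.239 for B1, 0.396 and 0.813 for ID, and -0.0897 and -0.243 for B4. All of these share libraries and size factors, the percents also share the repeat total, and they are given as a description.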
